A study of Homo sapiens with 70 samples.

Results

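The genes described here, 10 in number, act in mitochondrial protein quality control, and they were followed across all 70 libraries of a time course of ZBTB11 knockdown. They were the chaperones HSPD1, HSPE1, HSPA9 and TRAP1 and the proteases or protease subunits LONP1, CLPP, CLPX, YME1L1, AFG3L2 and SPG7. Each was found by its symbol, which gave 10 genes of the 78932 in the table. The libraries were poly(A) RNA from MIA PaCa-2, an established line of pancreatic ductal adenocarcinoma (PDAC), here in a form resistant to sotorasib. In bulk RNA, fewer expressing cells and less RNA per cell cannot be told apart. All cells carried an inducible dCas9-KRAB, a dead Cas9 fused to a repressor domain, and DOX (doxycycline) switched it on. Cells carried sgZBTB11 #1 or sgZBTB11 #2, which direct it to ZBTB11, or the control guide sgNS, and received DOX or DMSO for 5 hr or for 1, 3 or 5 days. These made 24 groups of 3 libraries, apart from the day 1 DMSO group of sgNS and the day 5 DMSO group of sgZBTB11 #1, which had 2 each. A single line in culture was the only model, the labels give no dose of DOX, and they leave unsaid whether the replicates were separate cultures. P-values therefore reflect library-to-library spread alone, possibly only technical.

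Total counts per library lay between 12068842 and 20627642. ZBTB11, a zinc finger transcription factor and the gene aimed at, was lower with DOX than with DMSO by 0.42 to 0.9 on the log2 scale at days 3 and 5 with both of its guides. The mean change of these guides minus that of sgNS was -0.56 (SE 0.065) at day 3 and -0.5 (SE 0.068) at day 5. The ZBTB11 change at 5 hr and day 1 is not given here. MIA PaCa-2 was checked against markers: KRT8, KRT18 and KRT19 spanned 333 to 2650, 957 to 4210 and 44.6 to 139 TPM (transcripts scaled to a fixed total per library), whereas the epithelial genes EPCAM and CDH1 stayed at or under 0.17 TPM and KRT7 at or under 0.92. DCN, LUM, PDGFRA, PTPRC, CD3E, LYZ, PECAM1 and VWF, which mark fibroblasts, leukocytes or endothelium, stayed at or under 0.37 TPM. COL1A1 and COL1A2, listed with the fibroblast markers, had up to 1.3 and 95 to 207 TPM, CD14 and CD68, leukocyte markers, had 0.33 to 1.45 and 0.11 to 6.98, and CDH5, an endothelial marker, had 0.86 to 12.6.

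Most mitochondrial proteins are made in the cytosol, imported unfolded and folded in the matrix by the chaperonin HSPD1 with its lid HSPE1, by the Hsp70 protein HSPA9, which also pulls in proteins during import, and by the Hsp90 protein TRAP1. Proteins that fail to fold are cut by ATP-driven proteases. LONP1 and CLPP work in the matrix, CLPP with the unfoldase CLPX. YME1L1 faces the intermembrane space from the inner membrane, and AFG3L2 and SPG7 form the protease that faces the matrix, SPG7 only together with AFG3L2. Doxycycline is a tetracycline, a class of antibiotics that can block the mitochondrial ribosome. Loss of balance between proteins made from mitochondrial and nuclear DNA is known to raise several of these chaperones and proteases. The DOX response in sgNS cells is therefore given beside that in cells with a ZBTB11 guide.

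HSPD1 and HSPE1 lie head to head on chromosome 2, with 105 bases between their starts, and are known to share a bidirectional promoter. By RefSeq on GRCh38.p14, HSPD1 spans chr2:197486584-197500274, HSPE1 chr2:197500379-197503449, HSPA9 chr5:138553756-138575401 and SPG7 chr16:89508388-89557768. RefSeq promoter windows, 250 bases before to 50 after a start on GRCh38.p14, were found for 8 of the 10 genes, as 11 windows. YME1L1 and CLPP were not among them. The windows shown are those of the HSPD1 and HSPE1 pair, which changed by different amounts, of the Hsp70 gene, and of SPG7, which moved against the other genes. Capitals mark 2 motifs, searched on both strands: an NRF1-type core, GCGCANGC or its reverse complement GCNTGCGC, which can overlap each other, and a heat shock element core, GAANNTTC or TTCNNGAA, each the same on both strands and able to overlap the other.
HSPE1, chr2:197500129-197500428, plus strand, a window that also holds the start of HSPD1: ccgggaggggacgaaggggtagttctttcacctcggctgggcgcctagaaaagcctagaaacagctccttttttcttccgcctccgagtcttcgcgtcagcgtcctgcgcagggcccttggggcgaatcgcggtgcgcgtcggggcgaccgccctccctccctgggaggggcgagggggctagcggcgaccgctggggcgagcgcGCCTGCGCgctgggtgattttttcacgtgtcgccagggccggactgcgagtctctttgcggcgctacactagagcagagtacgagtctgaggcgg
HSPD1, second window, chr2:197499791-197500090, minus strand: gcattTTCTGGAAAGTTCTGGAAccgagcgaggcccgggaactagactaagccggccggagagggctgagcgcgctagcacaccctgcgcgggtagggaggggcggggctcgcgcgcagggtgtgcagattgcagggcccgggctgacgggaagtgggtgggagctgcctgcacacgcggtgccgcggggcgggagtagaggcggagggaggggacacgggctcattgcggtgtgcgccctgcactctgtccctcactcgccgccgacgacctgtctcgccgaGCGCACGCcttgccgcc
HSPA9, chr5:138575352-138575651, minus strand: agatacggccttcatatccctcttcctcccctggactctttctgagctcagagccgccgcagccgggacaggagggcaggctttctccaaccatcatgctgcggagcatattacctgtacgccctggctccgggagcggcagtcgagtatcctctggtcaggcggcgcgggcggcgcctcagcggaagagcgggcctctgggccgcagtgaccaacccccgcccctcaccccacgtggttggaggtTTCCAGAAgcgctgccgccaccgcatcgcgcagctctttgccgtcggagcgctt
SPG7, chr16:89508138-89508437, plus strand: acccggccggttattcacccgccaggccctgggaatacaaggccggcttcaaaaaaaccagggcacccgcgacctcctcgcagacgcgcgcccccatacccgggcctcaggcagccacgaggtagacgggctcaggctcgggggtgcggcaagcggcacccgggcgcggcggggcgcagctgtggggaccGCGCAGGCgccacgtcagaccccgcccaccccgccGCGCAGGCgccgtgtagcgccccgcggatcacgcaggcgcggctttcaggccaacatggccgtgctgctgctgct
The shared HSPE1 and HSPD1 window held 1 NRF1-type core, 45 to 38 bases before the HSPE1 start and 67 to 60 before the first HSPD1 start. Heat shock cores stood in the second HSPD1 window, where 3 overlapped between 245 and 228 bases before that start, beside 1 NRF1-type core after it, and across the HSPA9 start. The SPG7 window held 2 NRF1-type cores, and no heat shock core. Windows of LONP1 and CLPX also held an NRF1-type core, and those of TRAP1 and AFG3L2 held neither motif. Of 35116 RefSeq windows of the same length, 12% held the NRF1-type core and 13.5% the heat shock core. Another motif, TGATGNAA or TTNCATCA, named for ATF4 with C/EBP, was in 3.62% of them and in none of the 11. A match describes letters only.

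All 10 genes were expressed in every library. Levels between genes are compared in TPM, which takes transcript length into account. The median over 70 libraries was 626 TPM for HSPE1, 260 for HSPD1, 189 for HSPA9, 116 for SPG7, 90.3 for TRAP1, 79 for CLPP, 66.3 for LONP1, 45.6 for AFG3L2, 33.3 for YME1L1 and 14.3 for CLPX. In the 8 DMSO libraries of day 1, HSPE1, HSPD1, HSPA9 and TRAP1 did not overlap with any other of the 10, at 734 to 848, 393 to 419, 261 to 291 and 114 to 134 TPM. CLPP, SPG7 and LONP1 followed with overlapping ranges of 98.5 to 109, 91.5 to 113 and 90.5 to 101 TPM, then AFG3L2 at 56 to 65.5, YME1L1 at 42.5 to 52.2 and CLPX at 15.2 to 25.2. In the 8 DMSO libraries of day 5 the order was another one. HSPE1 was still first at 418 to 499 TPM, SPG7 at 150 to 161 overlapped with HSPD1 at 136 to 158, and HSPA9 stood at 104 to 136. CLPP had 23.5 to 43.6 TPM there and overlapped with LONP1, AFG3L2 and YME1L1.

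**Figure D1:**
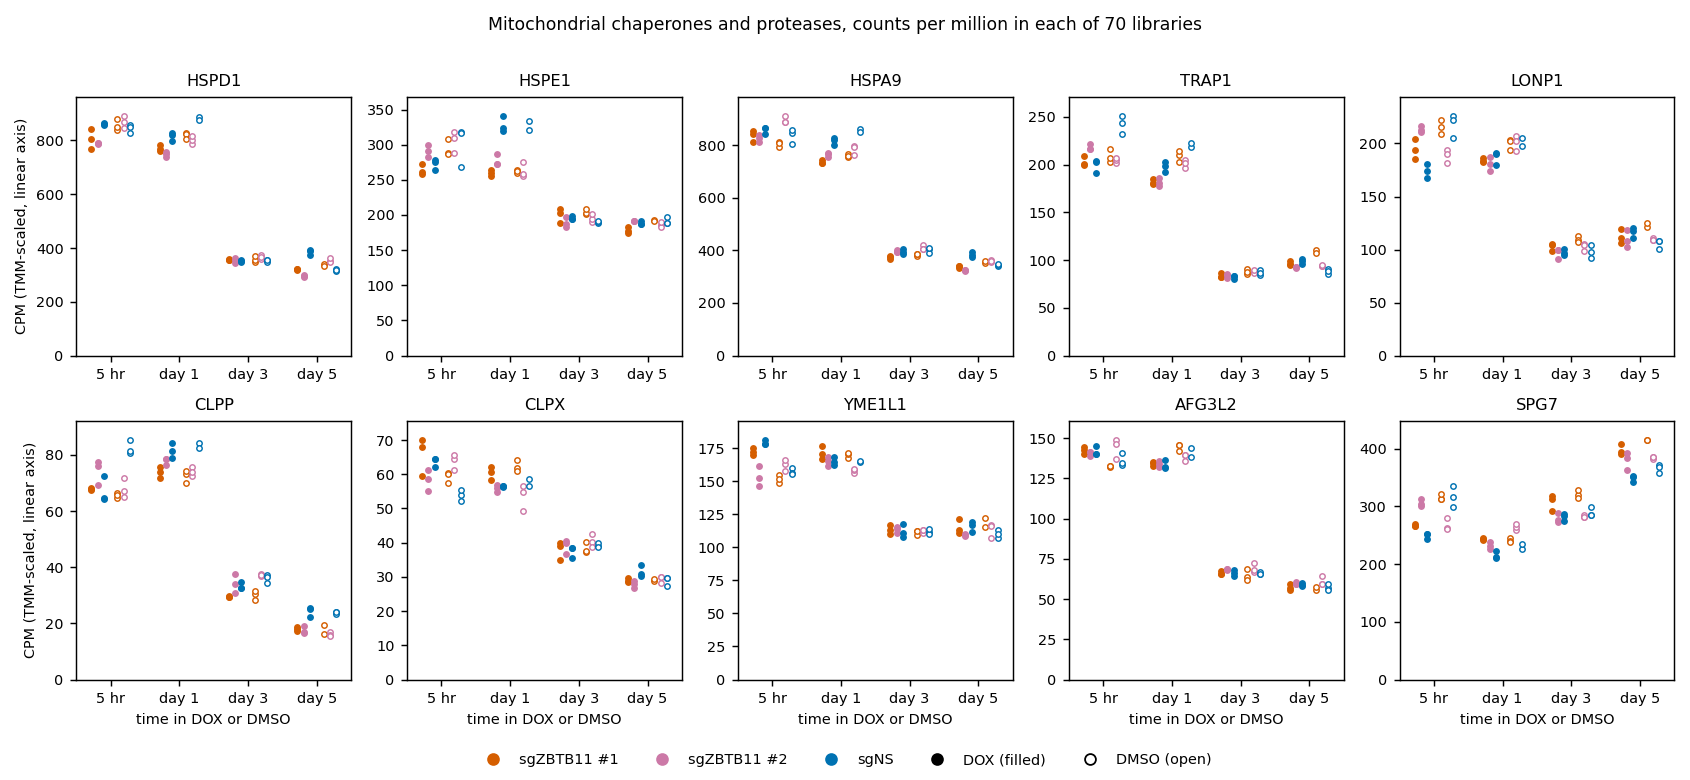
CPM, adjusted by TMM, of each of the 10 genes in each of 70 libraries (points), by time, guide (colour) and treatment (DOX filled, DMSO open). All genes but SPG7 sit lower at days 3 and 5 than at 5 hr and day 1 in every guide, whereas SPG7 sits highest at day 5.

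The clearest change was with culture time in DMSO. From here, levels are CPM (counts scaled to a fixed library size), adjusted by TMM, and steps between times are log2 changes from edgeR's quasi-likelihood test, as the mean over the 3 guides, with Benjamini-Hochberg adjusted p over 17598 genes and a threshold of 0.05. At day 3 against day 1, all 10 genes passed: 9 were lower and SPG7 was higher. Over all genes tested, 79.8% passed, 38.4% lower and 41.4% higher, so that passing was common. The median change was -0.96 over the 10 genes and 0.05 over all genes, and the median size was 0.96 against 0.49. Culture time and the handling of a time point cannot be told apart.

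HSPD1 had 347, 357 and 376 CPM (lowest, median, highest of 9 DMSO libraries) at day 3, against 788, 821 and 886 CPM in the 8 DMSO libraries of day 1. The libraries of the 2 days stood far apart, with a log2 change of -1.2 (SE 0.017, adjusted p = 3.3e-51), a fold of 0.436. Its lid HSPE1 had 188, 194 and 209 CPM at day 3, against 256, 263 and 334 at day 1, a smaller change of -0.51 (SE 0.026, adjusted p = 2.6e-20). HSPA9 had 378, 403 and 420 CPM at day 3, against 755, 778 and 862 at day 1, with a change of -0.99 (SE 0.017, adjusted p = 8.3e-48). TRAP1, at 84.4, 87.1 and 90.6 CPM at day 3 against 196, 207 and 222 at day 1, fell most of the 10 in this fit, by 1.24 on the log2 scale (SE 0.021, adjusted p = 1.1e-47). All 4 chaperones were thus lower in every day 3 library than in any day 1 library.

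Among the proteases, CLPP had 28.2 to 37.5 CPM at day 3, against 70 to 84.4 at day 1, a change of -1.14 (SE 0.029). AFG3L2 changed by -1.07 (SE 0.024) and LONP1 by -0.94 (SE 0.024), and YME1L1 and CLPX changed less, by -0.54 (SE 0.02) and -0.53 (SE 0.03). SPG7 had 281, 285 and 328 CPM at day 3, against 227, 242 and 269 at day 1, a rise of 0.3 (SE 0.02, adjusted p = 4.6e-20). Within each guide, the libraries of the 2 days did not overlap for any of the 10. The share of all genes without overlap was not counted, and 79.8% of all genes passed at this step. Each change was in the same direction in all 3 guides. The smallest was that of SPG7 with sgZBTB11 #2, at 0.12 (SE 0.032), beside 0.42 with sgZBTB11 #1 and 0.35 with sgNS. HSPE1 had -0.35 and -0.41 with the ZBTB11 guides and -0.76 with sgNS, the widest spread between guides among the 10.

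**Figure D2:**
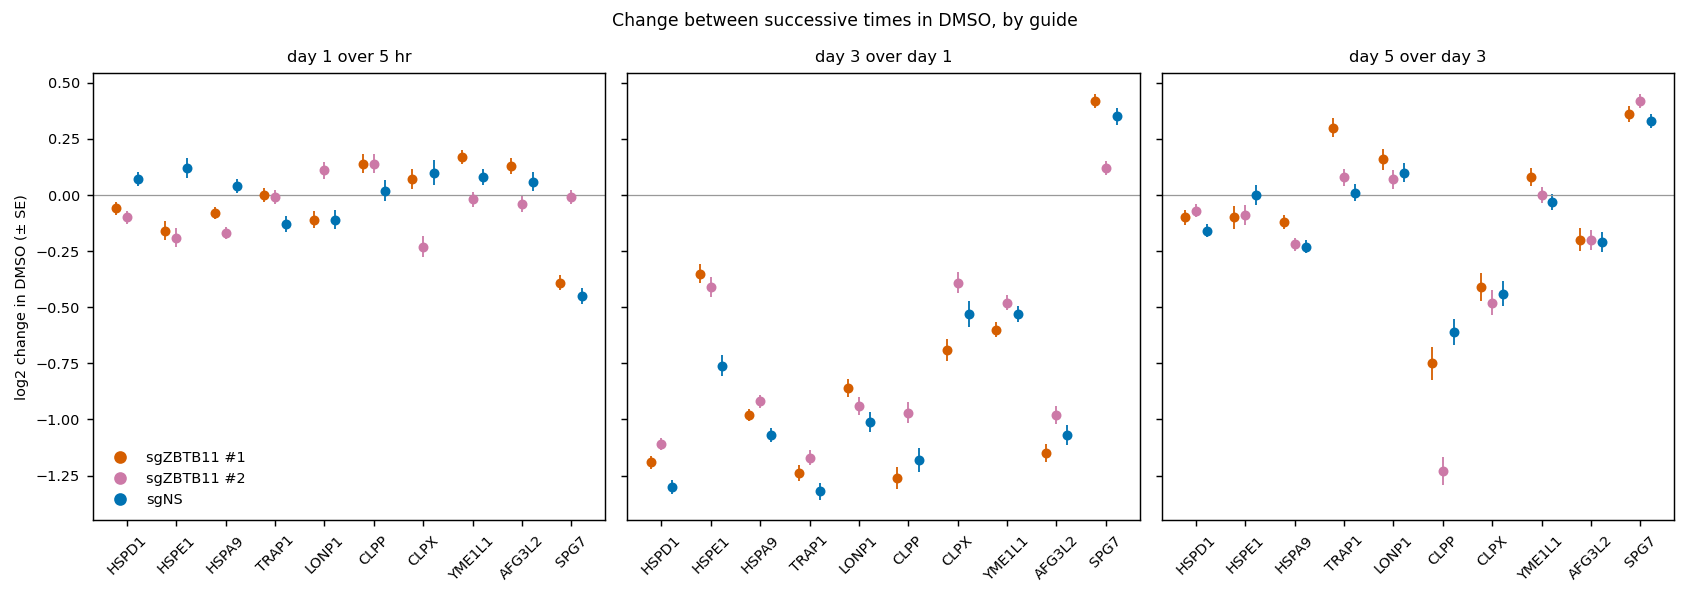
Log2 change between successive times in DMSO (points, ± SE) for each gene in each guide, from 1 fit of 34 DMSO libraries. At day 3 over day 1 every guide is below 0 for 9 genes and above 0 for SPG7, and over the mean of guides only SPG7 has a larger last step, at 0.37, than its 0.3 there.

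The first step, day 1 against 5 hr, was small. Of the 10 genes 6 passed, against 67.2% of all genes: 4 were lower, as were 33.1% of all genes, and 2 higher, as were 34.1%. SPG7 changed most, by -0.28 (SE 0.02, adjusted p = 6.9e-19), with -0.39 in sgZBTB11 #1, -0.01 in sgZBTB11 #2 and -0.45 in sgNS. CLPP at 0.1 and YME1L1 at 0.07 were higher, and HSPE1 at -0.08, HSPA9 at -0.07 and TRAP1 at -0.05 were lower. These directions depend on the scale: in limma on log2(TPM + 1) the median over all genes was itself 0.13, 8 genes passed as higher and 1 as lower, and HSPD1, HSPE1 and HSPA9 turned to 0.17, 0.13 and 0.23. The TRAP1 call was also lost without any one of 6 single libraries, with adjusted p up to 0.087.

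The last step, day 5 against day 3, had 9 genes past the threshold, against 65.3% of all genes, with 6 lower and 3 higher, beside 34.6% of all genes lower and 30.8% higher. CLPP had 15.4, 18.2 and 24 CPM in the 8 DMSO libraries of day 5, against 28.2, 36.7 and 37.5 in the 9 of day 3. It changed by -0.86 (SE 0.037, adjusted p = 1.1e-27), and its partner CLPX by -0.45 (SE 0.034, adjusted p = 2.3e-17). The fall of CLPP was -0.75 with sgZBTB11 #1, -1.23 with sgZBTB11 #2 and -0.61 with sgNS. SPG7 rose again, to 358, 384 and 415 CPM at day 5, a change of 0.37 (SE 0.019, adjusted p = 2.2e-24) with no overlap between the days. AFG3L2 changed by -0.21, HSPA9 by -0.19, HSPD1 by -0.11 and HSPE1 by -0.06, and the HSPE1 call was lost without any one of 12 single libraries, with adjusted p up to 0.1. TRAP1 at 0.13 and LONP1 at 0.11 were higher, but on log2(TPM + 1) they were lower, at -0.11 and -0.22, where the median of all genes was -0.18 and the split was 1 higher and 9 lower. YME1L1 did not pass, at 0.02 (SE 0.021).

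Partner genes did not keep a fixed ratio. The ratios below are of TPM within a library, were chosen after the values were seen and are given without a test. HSPE1 over HSPD1 had medians of 1.88, 2.06, 3.05 and 2.92 in DOX from the first to the last time, and 1.95, 1.87, 3.03 and 3.04 in DMSO. AFG3L2 over SPG7 had medians of 0.584, 0.597, 0.305 and 0.189 in DOX over the same times, and 0.493, 0.593, 0.31 and 0.193 in DMSO. At day 5 no library exceeded 0.214 for this ratio, and at day 1 none was under 0.537. CLPX over CLPP had medians of 0.193, 0.178, 0.214 and 0.249 in DOX and 0.169, 0.186, 0.215 and 0.266 in DMSO, and the DMSO ranges overlapped at each pair of successive times. TRAP1 over HSPA9 had medians of 0.433, 0.397, 0.391 and 0.488 in DOX and 0.577, 0.432, 0.428 and 0.488 in DMSO. The first DMSO fall was not seen in CPM, with medians at 5 hr and day 1 of 207 and 207 for TRAP1 and 847 and 778 for HSPA9. The count per TPM, which follows the assigned transcript length, ranged 1.8-fold for HSPA9 and 1.47-fold for TRAP1 over all libraries. Its part in this ratio was not tested.

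**Figure D3:**
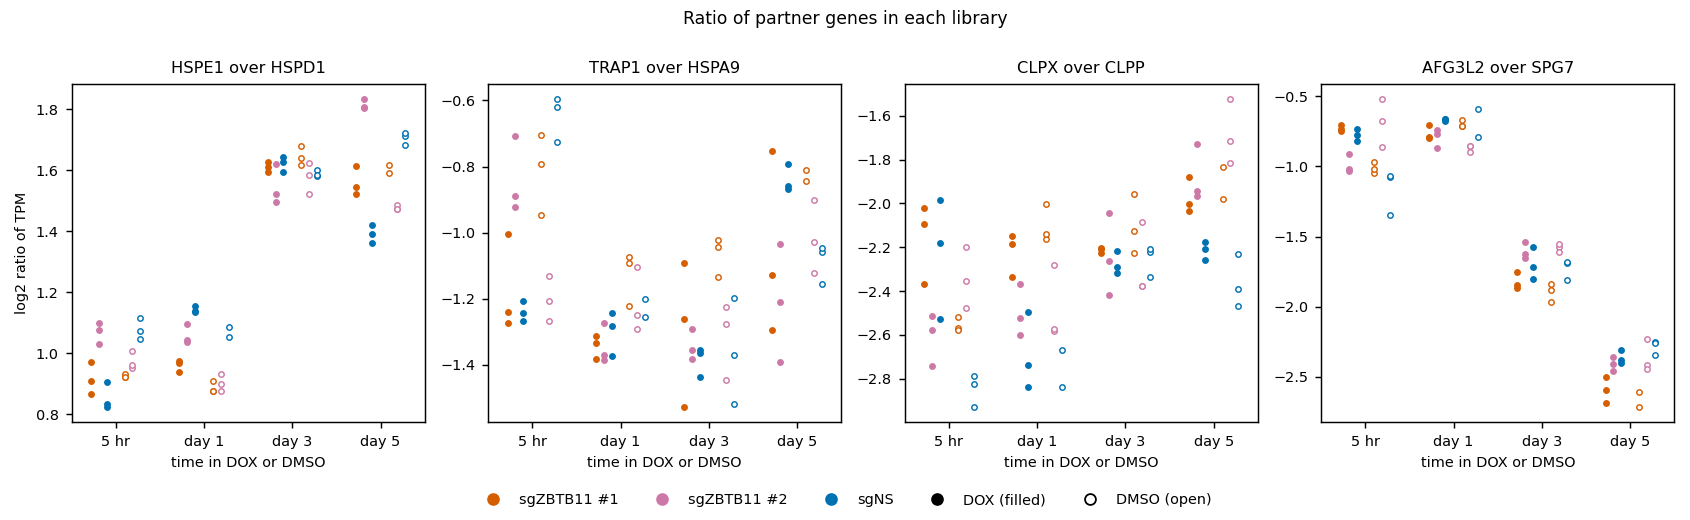
Log2 ratio of TPM of 4 pairs of partner genes in each library (points), by time, guide (colour) and treatment (DOX filled, DMSO open). The HSPE1 over HSPD1 ratio is higher and the AFG3L2 over SPG7 ratio lower at days 3 and 5 than before, in all guides and in both treatments.

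Genes outside the 10 were counted from lists of related genes, again at day 3 against day 1 in DMSO. At this step 38.4% of all genes were lower and 41.4% higher. Single genes named for this step were chosen after their values were seen. Of 9 co-chaperones of mitochondria, 6 fell and 1 rose, with a median of -0.47. They included GRPEL1, the nucleotide exchange factor of HSPA9, at -1.04 (SE 0.03), DNAJA3, its J-protein, at -0.7 (SE 0.031), and the disaggregase CLPB at -1.08 (SE 0.043). Of 14 other mitochondrial proteases and peptidases, 10 fell and 0 rose, with a median of -0.31. OMA1, the stress-activated protease of the inner membrane, was at 0.08 (SE 0.049) and did not pass. Of 6 genes listed with prohibitins and protease partners, which include SLC25A25 of the SLC25 mitochondrial carrier family, 5 fell, with a median of -1.08. Among the 5 were PHB1 at -1.14 and PHB2 at -1.01, which form a ring around the AFG3L2 and SPG7 protease.

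The change was not limited to mitochondrial factors. All 13 cytosolic chaperones of the heat shock type fell, with a median of -0.88, HSPA8 at -2.05 and HSP90AA1 at -1.58. Of 12 chaperones of the endoplasmic reticulum 11 fell and 1 rose, with a median of -0.39. Of 11 tested genes of the ATF4 and ATF5 branch, through which mitochondrial stress is known to reach the nucleus, 9 fell and 2 rose, with a median of -0.82. ASNS, asparagine synthetase, had -1.83 and DDIT4, an inhibitor of mTOR signalling, had 1.84. The 13 mRNAs of mitochondrial DNA moved the other way and all rose, with a median of 0.41, and again at day 5 against day 3, with a median of 0.81. Transcripts of mitochondrial DNA took medians of 12.9%, 10.5%, 19.6% and 31.4% of counts at the successive times. The summed level of the 6 epithelial markers, made up mostly of KRT8 and KRT18, was also lower at each later time. Its ranges were 5980 to 6820, 3010 to 3790, 1960 to 2260 and 1350 to 1880 TPM at the successive times. The part of these shifts in the results was not tested.

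**Figure D4:**
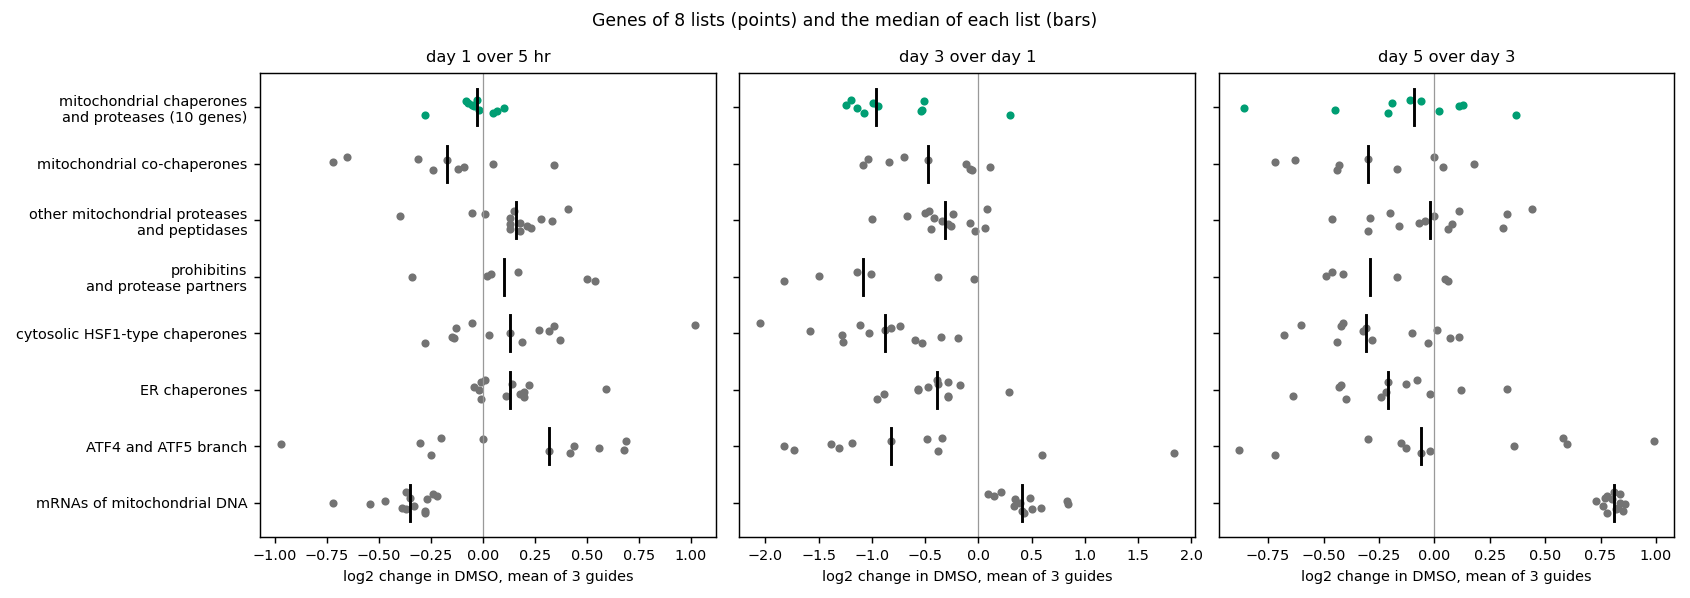
Log2 change between successive times in DMSO, mean of 3 guides, for each tested gene (points) of the 10 mitochondrial chaperones and proteases and of 7 related lists, with the median of each list (bars). At day 3 over day 1 the bars lie below 0 for all lists but the mRNAs of mitochondrial DNA, whose bar is at 0.41.

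In the 12 comparisons of DOX with DMSO in the main edgeR fits, no gene of the 10 changed by more than 0.32 on the log2 scale. Other settings went further: in sgNS at 5 hr, YME1L1 reached 0.51 and CLPX 0.42. In limma on log2(TPM + 1), HSPA9 was at 0.45 there (adjusted p = 8.6e-07). On that scale the median of all genes was 0.17. Of the 10 genes, 5 then passed as higher and 3 as lower, against 2 and 4 in the main fit. DOX responses are described by time, each with the 3 guides and with the net change, the mean DOX change of the 2 ZBTB11 guides minus that of sgNS. The 3 guides have DMSO libraries of their own, but the net change rests on the sgNS libraries for every gene.

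At 5 hr, 6 of the 10 genes passed with sgZBTB11 #1, 6 with sgZBTB11 #2 and 6 with sgNS, against 32.8%, 17% and 40.9% of all genes. The direction differed between guides, a difference tested only for the net change. SPG7 had 265.9, 269.6 and 266.8 CPM with DOX against 313.4, 313.4 and 322.3 with DMSO in sgZBTB11 #1 cells, a log2 change of -0.24 (SE 0.033, edgeR adjusted p = 2.7e-07). In sgZBTB11 #2 cells it had 300.7, 305 and 312.8 CPM with DOX against 263.3, 260.9 and 280.6 with DMSO, a change of 0.2 (SE 0.033, edgeR adjusted p = 1.8e-05). In sgNS cells it had 252.3, 253 and 243.5 CPM with DOX against 299.7, 317.1 and 335.9 with DMSO, a change of -0.32 (SE 0.033, edgeR adjusted p = 1.8e-10). DOX and DMSO libraries did not overlap in any guide, yet sgZBTB11 #2 stood opposite to the other guides. Its SPG7 was below theirs in DMSO and above theirs in DOX. Transcripts of mitochondrial DNA took 12.5 to 12.7% of counts in its DMSO libraries and 13.1 to 13.4% in its DOX libraries. In the other guides they took 13.7 to 14.3% and 11.9 to 12.4%. The source of this difference, present in DMSO already, was not tested.

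LONP1 showed the same arrangement, at -0.15 with sgZBTB11 #1, 0.19 with sgZBTB11 #2 and -0.3 with sgNS. LONP1 on log2(TPM + 1) was at -0.01 with sgZBTB11 #1 and -0.09 with sgNS, and neither passed. TRAP1 had -0.04, 0.1 and -0.26 in that order of guides, and CLPP had 0.05, 0.14 and -0.27. CLPX was higher with sgZBTB11 #1 at 0.16 and with sgNS at 0.26, and at -0.12 with sgZBTB11 #2, which did not pass. YME1L1 had 0.19, -0.07 and 0.21. HSPD1 was lower with both ZBTB11 guides, at -0.09 and -0.12, and at 0.05 with sgNS. AFG3L2 rose with sgZBTB11 #1, at 0.11, and had -0.02 with sgZBTB11 #2 and 0.08 with sgNS, which did not pass. HSPA9 also passed with sgZBTB11 #2, lower at 810 to 836 CPM with DOX against 886 to 911 with DMSO. That call held under all 7 other settings, at -0.23 to -0.07. With sgZBTB11 #1 and sgNS, HSPA9 passed on log2(TPM + 1), at 0.27 and 0.45, but not in the main fit. HSPE1 passed with no guide. Other settings gave it -0.16 to -0.01 with sgZBTB11 #1 and -0.15 to 0.04 with sgNS, and 2 and 3 of 7 did not pass. Some of these calls rest on 1 library: without sgZBTB11 #1 DMSO replicate 1, DOX replicate 2 or DOX replicate 3 the HSPD1 call with that guide was lost (adjusted p 0.18, 0.075 and 0.27), and without DOX replicate 1 that of CLPX (0.11). With sgZBTB11 #2, the TRAP1 call was lost without any one of 3 libraries and the CLPP call without any one of 4, with adjusted p up to 0.1 and 0.2. With the trend over gene length and GC content removed, 4 genes passed with each guide. CLPX was then at 0.03 with sgZBTB11 #1 and 0.05 with sgNS, YME1L1 at 0.06 and -0.01 in the same guides, AFG3L2 at 0.06 with sgZBTB11 #1, and TRAP1 and CLPP both at 0.03 with sgZBTB11 #2, none past the threshold.

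The net change at 5 hr passed for 7 genes, against 30% of all genes, with 14.7% higher and 15.2% lower: CLPP 0.37, LONP1 0.33, SPG7 0.31 and TRAP1 0.29 were higher, and CLPX -0.24, HSPD1 -0.15 and YME1L1 -0.15 were lower. When a trend over gene length and GC content was removed, 3 net calls were left, all higher, namely TRAP1, LONP1 and SPG7, and CLPP was at 0.07. Net HSPA9 did not pass in the main fit or under 4 of 7 other settings. In limma on log2(TPM + 1) it did, at -0.43 (adjusted p = 3.1e-05). Other lists also split by guide at 5 hr, where 32.8%, 17% and 40.9% of all genes passed with sgZBTB11 #1, sgZBTB11 #2 and sgNS. Of the 13 cytosolic chaperones 7 were higher and 1 lower with sgZBTB11 #1, 1 higher and 7 lower with sgZBTB11 #2, and 9 higher and 1 lower with sgNS. Of the 13 mRNAs of mitochondrial DNA 9 were lower with sgZBTB11 #1, 5 higher with sgZBTB11 #2 and 9 lower with sgNS. Their part in the result was not tested.

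At day 1, TRAP1 had 180.4, 180 and 184.9 CPM with DOX against 209.9, 202.5 and 214.4 with DMSO in sgZBTB11 #1 cells. In sgZBTB11 #2 cells it had 186.3, 177.6 and 181.2 CPM with DOX against 196.1, 204.4 and 202.1 with DMSO. In sgNS cells it had 192.8, 199 and 202.3 CPM with DOX against 218.9 and 222.4 with DMSO. DOX and DMSO libraries did not overlap in any guide, with DOX lower throughout, and the log2 changes were -0.18, -0.13 and -0.14 (edgeR adjusted p = 9.1e-05, 0.0046 and 0.015). Only the sgZBTB11 #1 call held under all 8 other settings, at -0.2 to -0.16. In limma on log2(TPM + 1), TRAP1 was at -0.11 in sgZBTB11 #2 (adjusted p = 0.19) and -0.01 in sgNS (0.96). With the trend over length and GC content removed, edgeR gave -0.07 in sgZBTB11 #2 (adjusted p = 0.1). The call in sgNS was lost without either of its DMSO libraries or without DOX replicate 1, with adjusted p up to 0.21.

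TRAP1 was the only one of the 10 to pass at day 1 with sgZBTB11 #1 and with sgNS, against 4.84% and 2.19% of all genes. With sgZBTB11 #2, 4 genes passed, against 7.88% of all genes, all lower, as were 4.45% of all genes: SPG7 at -0.17, LONP1 at -0.14, TRAP1 at -0.13 and HSPD1 at -0.08. On log2(TPM + 1), 2 genes passed with this guide and both were higher. HSPD1 had -0.07, -0.08 and -0.09 in the 3 guides and passed only with sgZBTB11 #2, a call that was lost with no filter on low counts (adjusted p = 0.14), on log2(TPM + 1) (0.25) and without any one of several libraries, with adjusted p up to 0.12. Those libraries were sgZBTB11 #2 DMSO replicates 2 and 3 and DOX replicates 1 and 3, and sgZBTB11 #1 DOX replicate 3. The LONP1 call was lost without sgZBTB11 #2 DOX replicate 3, with adjusted p = 0.067, which left 2 calls. For the net change, 0 genes passed in edgeR, DESeq2 and limma, 0 had an unadjusted p under 0.05, and 0.0737% of all genes passed.

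At day 3 none of the 10 passed in any guide or net, in edgeR, DESeq2 or limma. Unadjusted p was under 0.05 for 2 genes with sgZBTB11 #1, 2 with sgZBTB11 #2, 0 with sgNS and 1 net. Of all genes, 0.733%, 1.17%, 0.877% and 0.493% passed in these comparisons. The changes of the 10 lay between -0.13 (CLPP, sgZBTB11 #2, SE 0.055) and 0.05 (HSPE1, sgNS, SE 0.034). HSPD1, for example, had 356.5, 350.5 and 346.4 CPM with DOX against 355.5, 346.6 and 353.8 with DMSO in sgNS cells.

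At day 5 the guides parted again, now with sgNS on the upper side. HSPD1 had 318.5, 323.6 and 322.8 CPM with DOX against 340.3 and 332.8 with DMSO in sgZBTB11 #1 cells, a log2 change of -0.06 (SE 0.029) that did not pass. In sgZBTB11 #2 cells it had 296.5, 301.2 and 293.7 CPM with DOX against 353.1, 347.1 and 361.4 with DMSO, a change of -0.25 (SE 0.026, edgeR adjusted p = 7.9e-11). In sgNS cells it had 391.2, 373.2 and 389.3 CPM with DOX against 313.8, 322.1 and 316.9 with DMSO, a rise of 0.27 (SE 0.026, edgeR adjusted p = 3.4e-12). DOX and DMSO libraries did not overlap in any of the 3. HSPD1 in the sgNS DMSO libraries lay below that in the DMSO libraries of the other guides. Transcripts of mitochondrial DNA took 26 to 26.4% of counts in sgNS DMSO libraries and 29.4 to 29.8% in sgNS DOX libraries. In the other guides they took 31 to 33.7% with DMSO and 31.4 to 33.1% with DOX. The part of this difference in the results was not tested. The net change of HSPD1 was -0.43 (SE 0.032, edgeR adjusted p = 1.1e-15), a fold of 0.743. It passed under all 7 other settings, with values between -0.44 and -0.22, the value nearest 0 being that on log2(TPM + 1).

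HSPA9 followed the same order. In sgZBTB11 #1 cells its change was -0.07 (SE 0.028) and did not pass. With the trend over length and GC content removed it passed there, at -0.1 (edgeR adjusted p = 0.022). In sgZBTB11 #2 cells it had 321.3, 324.3 and 324.8 CPM with DOX against 354, 361.6 and 360 with DMSO, a change of -0.15 (SE 0.025, edgeR adjusted p = 1.5e-05). In sgNS cells it had 383.2, 376.3 and 392.7 CPM with DOX against 340.6, 345.6 and 348.3 with DMSO, a change of 0.15 (SE 0.025, edgeR adjusted p = 6.4e-06). Again DOX and DMSO libraries did not overlap in these guides. On log2(TPM + 1) the signs were turned, to 0.23 in sgZBTB11 #2, -0.22 in sgNS and 0.29 net, none past the threshold. The count per TPM of HSPA9, which follows the transcript length that RSEM assigns, was 0.786 ± 0.11 of its median with DOX and 0.984 ± 0.088 with DMSO in sgZBTB11 #2 cells (SD, n = 3 each). In sgNS cells it was 1.07 ± 0.011 with DOX and 0.957 ± 0.073 with DMSO. Over all libraries this quantity ranged 1.8-fold for HSPA9 and 1.07-fold for HSPD1.

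In all, 5 of the 10 genes passed in sgNS at day 5, against 17.3% of all genes, made up of 8.87% higher and 8.47% lower. HSPD1, HSPA9, TRAP1 at 0.16 and LONP1 at 0.13 were higher, and SPG7 at -0.08 was lower. The LONP1 and SPG7 calls were both lost without sgNS DMSO replicate 3 or DOX replicate 1, which left 3 calls. That of LONP1 was also lost without sgNS DOX replicate 2 (adjusted p = 0.14). For SPG7 the call also went when sgNS DOX replicate 3, sgZBTB11 #1 DMSO replicate 2 or sgNS DMSO replicate 1 was left out (0.064, 0.096 and 0.14), in DESeq2 (0.062), with the trend over length and GC removed (0.07) and in the fit of all 70 libraries (0.093). On log2(TPM + 1) 5 genes also passed in sgNS, but 1 higher and 4 lower, where the median of all genes was -0.16. TRAP1 passed in sgZBTB11 #1, at -0.16, as the only one, against 1.14% of all genes. That call was lost in DESeq2 (adjusted p = 0.055), in limma on log2(TPM + 1) (0.14) and with the trend over length and GC removed (0.092). It was also lost in edgeR without DOX replicate 1 or DOX replicate 2, with adjusted p of 0.073 and 0.075. Without either DMSO library, which left 1 in that group, TRAP1 was at -0.15 and -0.18. HSPD1 and HSPA9 passed in sgZBTB11 #2, against 9% of all genes. The net change passed for 4 genes, against 19.2% of all genes, 8.95% higher and 10.3% lower, and all 4 were lower: HSPD1, HSPA9 at -0.26, TRAP1 at -0.26 and LONP1 at -0.2. On log2(TPM + 1), where the median of all genes was 0.19, 5 genes passed net, 4 higher and 1 lower, with TRAP1 at -0.16 (adjusted p = 0.14) and LONP1 at 0.12 (0.35). HSPE1, which shares the promoter of HSPD1, was at -0.01 net (SE 0.036), with -0.1, 0.04 and -0.03 in the 3 guides. In limma on log2(TPM + 1) and after removal of the trend over length and GC it was higher, at 0.24 and 0.23, both past the threshold.

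**Figure D5:**
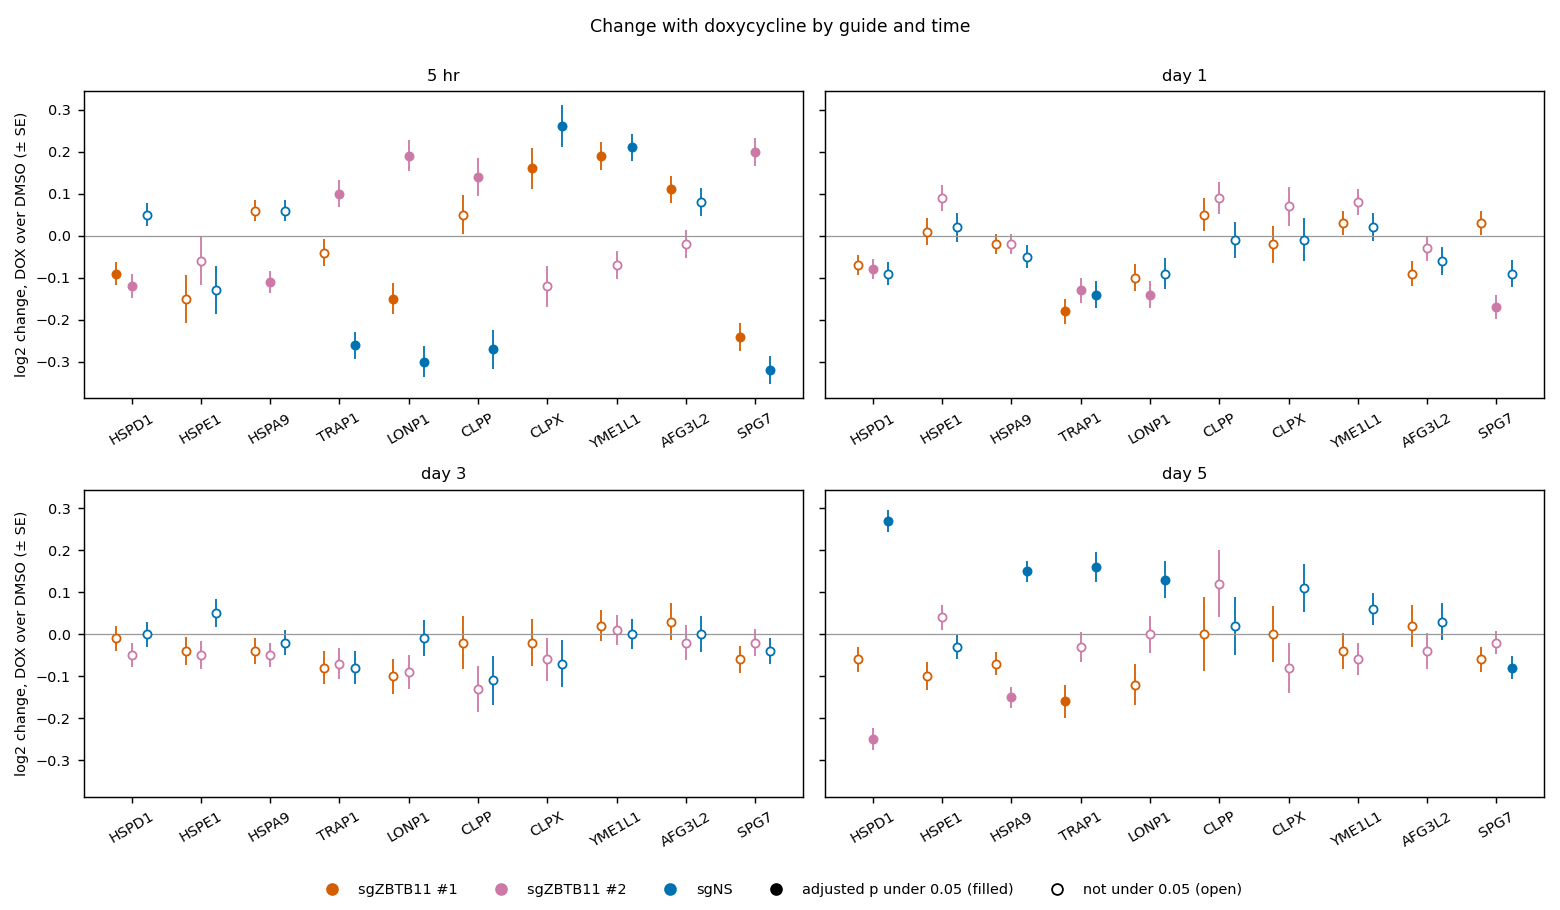
Log2 change with DOX over DMSO (points, ± SE) for each gene, guide (colour) and time, filled where the edgeR adjusted p is under 0.05. At 5 hr sgZBTB11 #2 lies opposite to the other guides for LONP1 and SPG7, at day 3 no point is filled, and at day 5 HSPD1 lies at -0.25 in sgZBTB11 #2 and at 0.27 in sgNS.

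Related lists were also counted at day 5, where 19.2% of all genes passed net and 17.3% in sgNS. The 13 mRNAs of mitochondrial DNA were higher with DOX in sgNS for 12 genes, with a median of 0.26. They were lower net for 12, with a median of -0.32. MT-CO2 was at -0.46 (SE 0.03), MT-ATP8 at -0.41, MT-CO3 at -0.39 and MT-ATP6 at -0.36. Of the 13 cytosolic chaperones, 7 were lower and 2 higher net. Among them were HSP90AA1 at -0.57 (SE 0.031), HSPA8 at -0.44 (SE 0.035), HSPA1B at -0.27 and DNAJB1 at 0.27. At day 3 HSPA8 was higher net, at 0.2 (SE 0.035, edgeR adjusted p = 0.0011). For chaperones of the endoplasmic reticulum at day 5, the largest net changes to pass were PDIA3 -0.64, PDIA6 -0.3, HYOU1 0.23 and HSP90B1 -0.15. Of the 9 co-chaperones, 1 was higher net, GRPEL2 at 0.27, and 2 were lower, DNAJA3 at -0.45 (SE 0.078) and DNAJC15 at -0.2, with a median of 0. Of the 6 genes listed with prohibitins and protease partners, 1 was higher net, SLC25A25 of the SLC25 mitochondrial carrier family, at 0.61. From the same list 2 were lower, MAIP1 at -0.82 and PHB2 at -0.38 (SE 0.041), and the median was -0.03. Of the 14 other mitochondrial proteases 4 were lower net, namely MIPEP at -0.48 (SE 0.16), PITRM1 at -0.26, OMA1 at -0.23 (SE 0.081) and PARL at -0.2. Of the 11 genes of the ATF4 and ATF5 branch, 1 was higher, ATF5 at 0.16, and 1 lower, ASNS at -0.31. The part of these in the results on HSPD1 and HSPA9 was not tested.

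Over the means of the 24 groups, levels of 9 of the 10 genes ran together. Pearson's r of log2 CPM was 0.859 or more for each pair that left out SPG7, with 0.995 for HSPA9 and HSPD1 and 0.993 for both AFG3L2 with HSPA9 and LONP1 with TRAP1. SPG7 had r between -0.842, with CLPP, and -0.536, with LONP1. The 24 means share 4 times, so these values mostly describe time, and no p is given. Among 11201 genes with a mean of at least 5 CPM, those most like HSPD1 were AIMP2, at r = 0.997, and HSPA9. Those most like HSPA9 were EIF2S2 and CCT2, and those most like TRAP1 were IFRD2 and TBRG4. SLIRP and GADD45GIP1 were most like HSPE1, PSMB1 and BRK1 most like CLPP, ECHDC1 and SET most like CLPX, and UBQLN1 and GNB1 most like YME1L1. EFTUD2 and FARSB were most like AFG3L2, TRAP1 and IFRD2 most like LONP1, and GAK and TPCN1, at r = 0.983 and 0.982, most like SPG7.

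Counts of some genes rest on shared reads. HSPD1 counts were not whole in 100% of libraries and HSPE1 counts in 95.7%, as happens where reads are split between copies. The 19 HSPD1 pseudogenes in the table held 0.781% of the HSPD1 count, and 27 copies and readthrough genes of HSPE1 held 0.483%. AFG3L1P, a related gene listed apart, held 106% of the count of AFG3L2, whose own counts were whole. The strand setting is not given in the sources used here, so reads from overlapping exons on the other strand cannot be told apart. In the GENCODE annotation given with the reference, DNASE1 covers 29.3% of the TRAP1 exon bases, HSPD1 covers 14.2% of HSPE1, TUBB6 covers 12.6% of AFG3L2 and MASTL covers 6.04% of YME1L1.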

How the data were processed

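Poly(A) RNA was sequenced from 70 libraries. The authors deposited estimated (expected) counts and TPM per gene, made with RSEM on GRCh38.p14 per the submitters' processing notes, with no version, annotation release or strand setting given in the sources used here. Expected counts were rounded to whole numbers: 5.13% of the deposited values were not whole. No column was left out, and no pair of libraries in a group was identical.

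DOX was compared with DMSO in 1 fit per time, and times in 1 fit of the 34 DMSO libraries, with edgeR 4.0.16 (R 4.3.3): filterByExpr, TMM, robust quasi-likelihood test, Benjamini-Hochberg over all genes, threshold 0.05. The test was checked on simulated counts. Alternatives were DESeq2 1.42.0, RLE scaling, all genes without a filter, a replicate block, limma 3.58.1 on log2(TPM + 1) for genes of at least 1 TPM in 3 libraries, a length and GC trend removed with splines, 1 fit of all libraries, and each library left out.

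The members and lists were chosen with earlier results of these data known. All 10 genes are named, with the 2 genes most like each by correlation, and up to 4 called genes of each list with the largest net change at days 3 and 5. All 109 listed symbols were found. Depth was 12068842 to 20627642 counts.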

Additional observations from a re-analysis of the deposited data

Results flagged for a closer look

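The DOX response of the ZBTB11 guides differed from that of sgNS, by the tested net change, for 7 genes at 5 hr. TRAP1 was at 0.29, LONP1 at 0.33, CLPP at 0.37 and SPG7 at 0.31, and HSPD1 at -0.15, CLPX at -0.24 and YME1L1 at -0.15. This net change averages 2 guides whose responses were not alike: SPG7 was at -0.24 with sgZBTB11 #1, 0.2 with sgZBTB11 #2 and -0.32 with sgNS. With the trend over length and GC content removed, 3 of the 7 passed, namely TRAP1, LONP1 and SPG7. At day 5 it differed for 4 genes, HSPD1 at -0.43, HSPA9 at -0.26, TRAP1 at -0.26 and LONP1 at -0.2. On log2(TPM + 1), HSPD1 was the only one of these 4 to pass, and HSPA9 was at 0.29, LONP1 at 0.12 and TRAP1 at -0.16.

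In other cases the 2 sets of libraries compared did not overlap in a guide, nor in another guide where the change was opposite. The difference itself was not tested, and the share of all genes that meet this rule was not counted. With DOX at 5 hr, sgZBTB11 #1 minus sgZBTB11 #2 was -0.34 for LONP1 and -0.44 for SPG7. At day 5 it was -0.14 for HSPE1, whose change passed with neither of these guides. At day 1 against 5 hr in DMSO, HSPD1 differed from sgNS by -0.13 in sgZBTB11 #1 and by -0.17 in sgZBTB11 #2. HSPE1 differed from sgNS by -0.28 and -0.31 in the same guides. CLPX differed by 0.3 between sgZBTB11 #1 and sgZBTB11 #2, and by -0.33 between sgZBTB11 #2 and sgNS.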

How the results depend on the processing

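The 10 changes of day 3 against day 1 kept their direction and passed under every setting and without each library. Over all comparisons, 25 of 1370 values of single genes under other settings changed sign with a pass before or after, 43 no longer passed and 50 newly passed. Of 3820 values without a library 0 changed sign with a pass before or after, 50 no longer passed and 32 newly passed. Changes of sign between values that did not pass are not counted. The cause was not tested.

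On log2(TPM + 1), at day 5 with DOX, HSPA9 was at 0.23 in sgZBTB11 #2, and in sgNS HSPA9 was at -0.22, LONP1 at -0.07, CLPP at -0.21 and AFG3L2 at -0.21. The net values were 0.24 for HSPE1, 0.29 for HSPA9, 0.12 for LONP1 and 0.23 for AFG3L2. At day 1 against 5 hr, HSPD1 was at 0.17, HSPE1 at 0.13, HSPA9 at 0.23, LONP1 at 0.12 and CLPX at 0.25, and at day 5 against day 3, TRAP1 was at -0.11, LONP1 at -0.22 and YME1L1 at -0.24. With the length and GC trend removed, at 5 hr in sgNS HSPA9 was at -0.08, CLPP at 0.05 and YME1L1 at -0.01, and net YME1L1 was at 0.04. Net HSPE1 at day 5 was at 0.23, HSPE1 was at 0.12 in both the first and the last step, and YME1L1 at -0.01 in the first.

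Counts of genes called moved as follows. The net count at 5 hr was 3 with the trend removed. At day 1 in sgZBTB11 #1 it was 2 with RLE, 3 with the trend removed and 3 in the fit of all 70 libraries. In sgNS it was 2 with RLE, DESeq2, the trend removed and the fit of all 70, and 0 on log2(TPM + 1). In sgZBTB11 #2 it was 2 on log2(TPM + 1). At day 5 in sgZBTB11 #1 it was 0 in DESeq2 and on log2(TPM + 1).

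Without each library in turn, the counts ranged at 5 hr from 5 to 8 in sgZBTB11 #1, 4 to 7 in sgZBTB11 #2, 6 to 8 in sgNS and 7 to 8 net. At day 1 they were 1 to 2, 2 to 4, 0 to 2 and 0 net, at day 3 always 0, and at day 5 0 to 1, 2, 3 to 5 and 4 to 5. For the steps in order they were 5 to 7, 10 and 8 to 9. Where a group was left with 1 library, that library is assumed to vary like the others.

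Whether replicate numbers pair the libraries cannot be settled in groups of 2 or 3. Deviations of same-numbered DOX and DMSO libraries correlated at -0.11 to 0.3, with a median of 0.042, over 0.1 in 7 of 34 pairs. With the replicate block the counts at 5 hr were 7, 6, 7 and 8 net, and the block moved no count by over 1.5 times. At day 1 a block by library name was also run, because replicate numbers of the sgNS DMSO libraries differ between title and library name. It gave counts of 1, 4, 1 and 0 net. Counts of 12068842 or more per library limit changes of the lowest genes most.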
